A study of Mus musculus with 8 samples.

Results

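The genes described here encode the constitutive proteasome. They were chosen by symbol: every probe set annotated with exactly 1 gene whose symbol starts with Psma, Psmb, Psmc or Psmd and a number, leaving out the 3 interferon-induced subunits Psmb8, Psmb9 and Psmb10. This gave 65 probe sets of 36 genes, out of 12393 genes that had a probe set of 1 symbol. By textbook role, 31 of the 36 are subunits: 14 of the 20S core particle, 9 of the base and 8 of the lid of the 19S regulatory particle. Psmd5, Psmd9 and Psmd10 encode chaperones that help assemble the base, and Psma8 encodes a testis form of an alpha subunit. Psmc3ip met the rule by its letters alone, since it encodes a protein of meiotic recombination.

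The samples were diaphragm, the main breathing muscle, of 8-week-old mice. The dystrophic group had the dy/dy genotype, described in the series title as a laminin-deficient muscular dystrophy, and the normal group is labelled only as the control for dy/dy. The labels used here give no strain, sex or genotype of the controls. Each group had 4 Affymetrix arrays, each from a pool of 3 mice, so 12 mice entered each group. The values come from whole muscle, in which fewer cells of a type and less RNA per cell cannot be told apart. A p-value here measures the spread between pools, and the spread between single mice is hidden by pooling.

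The proteasome is the protease that degrades most ubiquitin-tagged proteins in the cytosol and nucleus. Its 20S core is a barrel of alpha and beta rings, and the active sites lie inside the barrel on the beta subunits encoded by Psmb5, Psmb6 and Psmb7. The 19S particle caps the barrel: the base holds the ring of ATPases, Psmc1 to Psmc6, that unfolds substrates and opens the core, and the lid removes ubiquitin through Psmd14. In skeletal muscle this system carries out much of the breakdown of contractile proteins during wasting. When proteasome activity is low, the transcription factor Nfe2l1 can raise most subunit genes together through antioxidant response elements in their promoters.

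Promoter sequence from RefSeq (assembly GRCm38.p6) was matched by symbol for 25 of the 31 subunit genes, with 27 promoters in all. The antioxidant response element core TGACNNNGC, searched on both strands in the 250 bases before each start, was found in 4 of the 27 promoters (14.81%), against 10.16% of 32851 promoters of all genes. The 4 belonged to Psmb5, Psmb6, Psmc6 and Psmd12. The CCAAT box, searched the same way, was found in 10 of the 27 (37.04%), against 33.85% of all. The motifs can share at most 1 letter, and a match describes letters, not a bound site. The 200 bases before the start are shown for 2 catalytic subunits whose promoters hold the element, and for Psmc1 and Psmd13, the subunits with the smallest p-values below. Capitals mark TGACNNNGC in Psmb5 and Psmb6 and CCAAT in Psmc1, and the Psmd13 window holds neither.
Psmb5, chr14:54617996-54618195, minus strand: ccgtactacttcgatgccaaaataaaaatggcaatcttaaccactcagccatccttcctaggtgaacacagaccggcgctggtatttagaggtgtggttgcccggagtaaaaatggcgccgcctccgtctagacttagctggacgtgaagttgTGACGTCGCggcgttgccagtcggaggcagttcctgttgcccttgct
Psmb6, chr11:70525157-70525356, plus strand: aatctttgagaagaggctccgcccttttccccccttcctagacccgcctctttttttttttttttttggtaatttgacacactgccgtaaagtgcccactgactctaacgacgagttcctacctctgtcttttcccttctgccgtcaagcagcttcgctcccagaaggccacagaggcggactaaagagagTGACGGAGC
Psmc1, chr12:100110002-100110201, plus strand: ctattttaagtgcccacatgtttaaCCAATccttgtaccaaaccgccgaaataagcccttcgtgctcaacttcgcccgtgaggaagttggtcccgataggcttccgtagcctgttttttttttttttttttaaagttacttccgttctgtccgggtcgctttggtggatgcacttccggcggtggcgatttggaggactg
Psmd13, chr7:140882194-140882393, plus strand: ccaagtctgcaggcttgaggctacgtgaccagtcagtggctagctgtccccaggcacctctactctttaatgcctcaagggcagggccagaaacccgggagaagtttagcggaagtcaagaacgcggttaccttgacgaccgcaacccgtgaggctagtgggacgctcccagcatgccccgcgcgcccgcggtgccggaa
The last base of the element lay 39 bases before the start of Psmb5 and next to the start of Psmb6. In Psmc1 the CCAAT box began 175 bases before the start.

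Lama2, which encodes the laminin chain altered in dy mice, checked the labels. Its signal was 845.6 ± 101.2 on the normal arrays and 270.0 ± 46.05 on the dystrophic ones (SD, n = 4 each). The difference was -1.60 on the log2 scale, with a standard error of 0.15 and an adjusted p of 8.911e-04 by limma. All 10 skeletal muscle markers were bright, with a summed signal of 157383 to 238886 in normal and 155369 to 177524 in dystrophic arrays, and 0 of the 10 passed the limma test, nor did any at an unadjusted p under 0.05. Of the 10, 8 lay below 0 and 2 above, with a median log2 difference of -0.20. Tnnt3 was lower without overlap and Myh7 higher, where 2.53% and 3.87% of all tested probe sets showed those patterns. On the first principal component normal replicate 4 (36.13) and dystrophic replicate 3 (-33.97) stood apart from the other 6 arrays, which lay between -12.52 and 11.47. The second component set replicate 1 of both groups, at 33.87 in normal and 25.95 in dystrophic, far from the rest, which lay between -16.82 and -2.48. Liver markers summed to 41173 in dystrophic replicate 3 and to between 962.6 and 5209 in the other 7 arrays. Red cell markers, of which 2 of 3 had a probe set, summed to 266.9 to 1170 in normal and 395.1 to 703.6 in dystrophic arrays. The share of liver transcripts in the values below was not tested, and group results are also given without the 2 arrays that stand apart on the first component.

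No constitutive proteasome gene passed the test in dystrophic diaphragm. Signals were compared on the log2(signal + 16) scale with limma, adjusted over all 13575 probe sets that were not among the dimmest 40%, and 0.494% of those probe sets passed at an adjusted p under 0.05. Of the 65 proteasome probe sets 52 were tested, and each of the 31 subunits was represented by its brightest one. Of the 31, 22 lay above 0 (71.0%), against 47.7% of all tested probe sets, and 9 lay below. The median difference was 0.10, against -0.012 over all tested probe sets. Even the dimmest subunit was brighter than 71.6% of those probe sets. The share above 0 and the median among probe sets as bright as the subunits were not taken. Between 19 and 26 of the 31 lay above 0 under the other settings tried, and 25 did without normal replicate 4 and dystrophic replicate 3. The lowest adjusted p among the subunits was 0.374, for Psmc1.

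At an unadjusted p under 0.05, 2 subunits were higher, Psmc1 and Psmd13, against 5.6% of all probe sets, and 0 were lower, against 4.13%. The groups did not overlap in 1 subunit, Psmd13, with the dystrophic arrays above the normal ones, where 3.87% of all probe sets showed that pattern and 2.53% its opposite. A difference beyond 0.5 on the log2 scale was found in 1 subunit, Psmc1, against 6.28% of all probe sets. These shares are close to the background of the array.

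The spread of these genes sets what could have been seen. The standard error of the subunits' differences had a median of 0.15, with a range of 0.11 to 0.21. For 26 of the 31 subunits the 95% interval lay within 1.5-fold in both directions, and for 30 it lay within 2-fold. Over all tested probe sets 56.83% had an interval within 1.5-fold. The 5 subunits with wider intervals were Psma4, Psmb2, Psmc1, Psmc5 and Psmd2, and Psmc1 alone reached past 2-fold. These intervals are not adjusted for the number of probe sets and do not mark a limit of detection. Psmc1, at a difference of 0.59, had an adjusted p of 0.374 by limma. Small differences could be missed with 4 arrays a group, and the missing calls do not show that levels were equal.

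**Figure D1:**
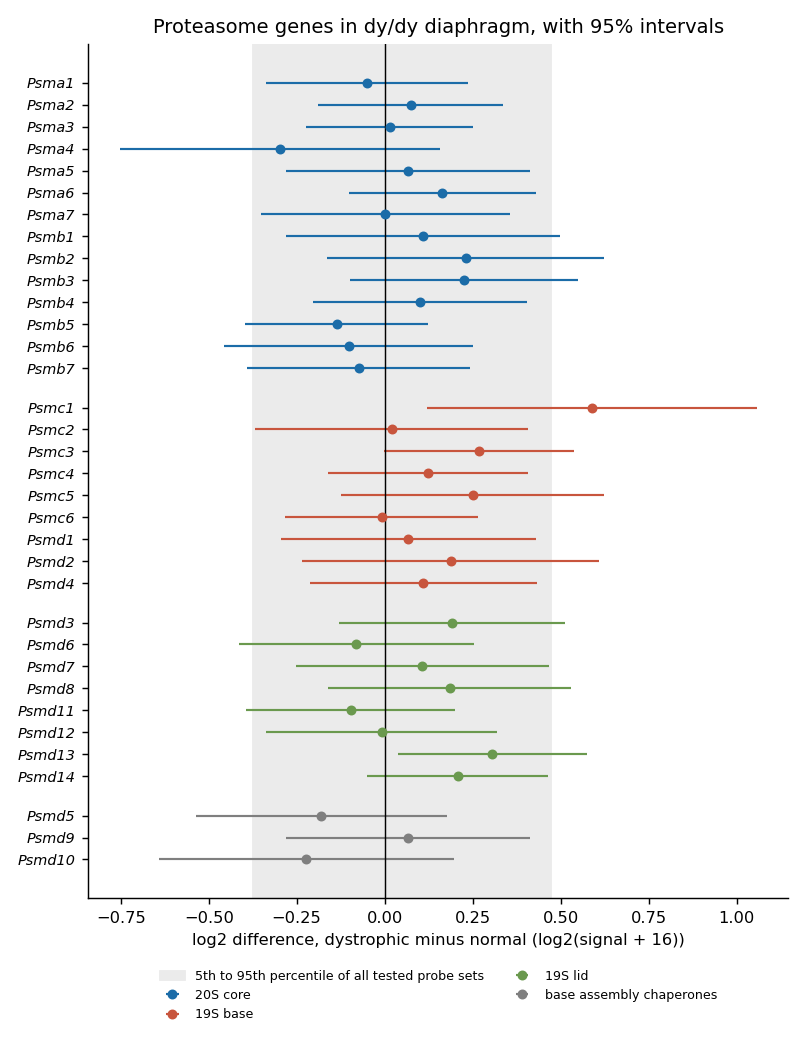
Log2 difference, dystrophic minus normal, of each tested proteasome subunit and base assembly chaperone (points) with its 95% interval from limma (bars), grouped by particle; the grey band spans the 5th to 95th percentile of all tested probe sets, -0.37 to 0.47. Psmc1, at 0.59, is the only subunit outside the band, and the intervals of Psmc1 and Psmd13 alone exclude 0 before adjustment.

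In the 20S core, 9 of 14 subunits lay above 0 and 5 below, with a median difference of 0.041 and a range from -0.30 to 0.23. Without the 2 arrays that stand apart the median was 0.12, and with single arrays left out it lay between 0.0019 (without normal replicate 1) and 0.094 (without normal replicate 4). The lowest adjusted p was 0.684. Among the alpha subunits, which form the gated outer rings, 5 of 7 lay above 0 and their median was 0.014. Among the beta subunits 4 of 7 lay above 0 and the median was 0.10.

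The 3 catalytic subunits all lay slightly below 0, except that Psmb7 lay at 0.061 after quantile normalization and at 0.0063 on the values as deposited. Psmb5, which carries the chymotrypsin-like site, had signals of 4695, 3730, 4098 and 4217 in normal replicates 1 to 4 and of 3893, 3618, 3537 and 4157 in dystrophic replicates 1 to 4. The groups overlapped, with dystrophic replicates 2 and 3 below every normal array, and the log2 difference was -0.14 (SE 0.12, limma adjusted p = 0.779). Psmb6, which carries the caspase-like site, had 3083, 2132, 2524 and 3018 in normal and 3040, 2517, 2020 and 2433 in dystrophic arrays. Both groups covered nearly the same range, with replicate 1 highest in each, and the difference was -0.10 (SE 0.16, limma adjusted p = 0.898). Psmb7, which carries the trypsin-like site, had 10827, 9752, 10823 and 14787 in normal and 12209, 10154, 10617 and 10455 in dystrophic arrays. Its difference of -0.074 (SE 0.14, limma adjusted p = 0.921) turned to 0.051 without normal replicate 4, the highest array. Psmb6 turned to 0.055 when normal replicate 4 and dystrophic replicate 3 were both left out, while Psmb5 stayed below 0 there. With single arrays left out Psmb6 lay between -0.21 (without normal replicate 2) and -0.0055 (without dystrophic replicate 3), and Psmb5 lay at -0.080 without normal replicate 1.

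The other beta subunits, which have no active site, lay above 0 by their brightest probe sets. Psmb2 had 2303, 1499, 2299 and 1475 in normal and 2128, 2015, 1976 and 2628 in dystrophic arrays. Normal replicates 2 and 4 were low and normal replicates 1 and 3 lay among the dystrophic values, with a difference of 0.23 (SE 0.18, limma adjusted p = 0.745). Psmb3 had 2478, 1686, 2487 and 2011 in normal and 2684, 2195, 2586 and 2572 in dystrophic arrays. Of its dystrophic arrays 3 lay above every normal array, and the difference was 0.23 (SE 0.15, limma adjusted p = 0.684). Without normal replicate 2, low in both genes, Psmb2 lay at 0.13 and Psmb3 at 0.11, and Psmb2 lay at 0.12 without normal replicate 4 and at 0.14 without dystrophic replicate 4. Psmb1 and Psmb4 had differences of 0.11 and 0.10, and a dimmer tested probe set of each lay below 0, at -0.25 and -0.034.

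Of the alpha subunits, Psma6 and Psma4 lay farthest from 0. Psma6 had 3984, 2998, 3810 and 3593 in normal and 4148, 3937, 4118 and 3841 in dystrophic arrays, a difference of 0.16 (SE 0.12, limma adjusted p = 0.725). The dystrophic arrays were close together and 2 of them exceeded every normal array, and without normal replicate 2 the difference was 0.080. This probe set is marked as able to hybridise with other transcripts. Another bright probe set of Psma6, without that mark, gave 0.040, and a dim one gave -0.25. Psma4 had 2524, 2847, 3591 and 3847 in normal and 1806, 2491, 3640 and 2646 in dystrophic arrays. Dystrophic replicates 1 and 2 lay below every normal array and dystrophic replicate 3 lay among the highest, so the difference of -0.30 (SE 0.21, limma adjusted p = 0.703) had the widest interval of the core, from -0.75 to 0.16. It was -0.13 without dystrophic replicate 1 and -0.46 without dystrophic replicate 3. The remaining alpha subunits, Psma1, Psma2, Psma3, Psma5 and Psma7, lay between -0.051 and 0.074.

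**Figure D2:**
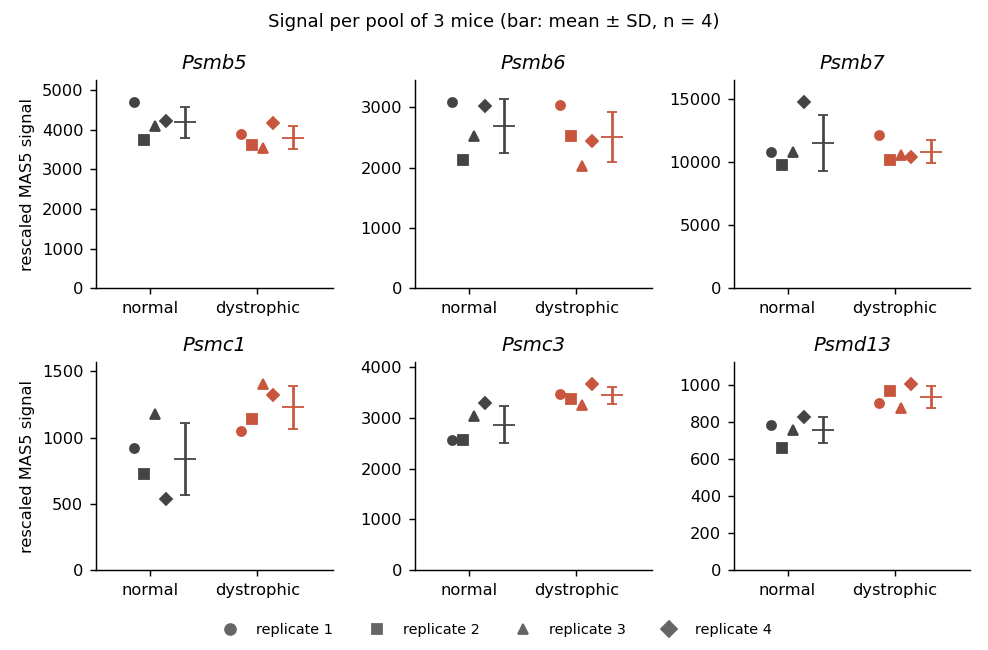
Rescaled MAS5 signal on each of the 8 arrays for the catalytic subunits Psmb5, Psmb6 and Psmb7 and for Psmc1, Psmc3 and Psmd13, with the mean and SD of each group (n = 4) beside the points and a marker shape for each replicate number. The groups overlap for the catalytic subunits, Psmd13 does not overlap (662.5 to 827.6 in normal, 877.1 to 1007 in dystrophic), and Psmc1 in normal muscle spans 534.5 to 1174.

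In the 19S base, 8 of 9 subunits lay above 0, with a median of 0.12 and a range from -0.0078 to 0.59; the exception, Psmc6, lay above 0 on the values as deposited (0.072) and after quantile normalization (0.0087). The ATPases had a median of 0.19, with 5 of 6 above 0. Without normal replicate 4 and dystrophic replicate 3 the median of the base was 0.22. Psmc1 had signals of 919.9, 727.3, 1174 and 534.5 in normal and of 1046, 1139, 1402 and 1323 in dystrophic arrays. Normal replicate 4 was the lowest, normal replicate 3 lay within the dystrophic range, and 2 dystrophic arrays exceeded every normal one. The difference was 0.59 (SE 0.21, 95% interval 0.12 to 1.06, unadjusted p = 0.0183 and adjusted p = 0.374 by limma). It was 0.40 without normal replicate 4 and 0.33 with dystrophic replicate 3 left out as well.

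Psmc3, another ATPase of the ring, had 2558, 2570, 3039 and 3282 in normal and 3467, 3370, 3245 and 3657 in dystrophic arrays. All but dystrophic replicate 3 lay above every normal array, and the difference was 0.27 (SE 0.12, limma adjusted p = 0.514). Psmc5 and Psmc4 had differences of 0.25 and 0.12, Psmc2 one of 0.020 and Psmc6 one of -0.0078. Among the subunits of the base without ATPase activity, Psmd2, a scaffold that binds ubiquitin-like domains, had 0.19, the ubiquitin receptor Psmd4 had 0.11, and the scaffold Psmd1 had 0.067. The value of Psmd2 rested on normal replicate 4, at 2489 where the other 7 arrays lay between 4066 and 5136, and without that array it was -0.024.

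In the 19S lid, 5 of 8 subunits lay above 0, with a median of 0.15 and a range from -0.097 to 0.31. Without the 2 arrays that stand apart the median was 0.16, and without dystrophic replicate 4 it was 0.079. Psmd13, a structural subunit, had 785.4, 662.5, 757.4 and 827.6 in normal and 903.7, 968.8, 877.1 and 1007 in dystrophic arrays. All 4 dystrophic arrays lay above all normal arrays, and the difference was 0.31 (SE 0.12, unadjusted p = 0.0292 and adjusted p = 0.449 by limma). A second, dimmer probe set of Psmd13 had 396.4 to 524.7 in normal and 418.7 to 493.4 in dystrophic arrays and a difference of 0.050. Psmd14, the deubiquitinase of the lid, had a difference of 0.21 (SE 0.12, limma adjusted p = 0.614), with 3 dystrophic arrays above the highest normal one, and it was 0.13 without dystrophic replicate 2. Psmd3 and Psmd8 had 0.19 and 0.18, and Psmd7 had 0.11.

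The lid also held 3 subunits below 0, of which Psmd12 lay above 0 on the values as deposited (0.071) and after quantile normalization (0.0072). Psmd11, a structural subunit known to promote proteasome assembly, had 5676, 5115, 4923 and 7059 in normal and 4821, 5574, 5409 and 5305 in dystrophic arrays, a difference of -0.097 (SE 0.14, limma adjusted p = 0.879). Psmd6 had 3679, 2974, 2642 and 4278 in normal and 3300, 3077, 3020 and 3225 in dystrophic arrays, a difference of -0.080 (SE 0.15, limma adjusted p = 0.918). Psmd12 had 2260, 2115, 2688 and 3307 in normal and 2371, 2739, 2409 and 2653 in dystrophic arrays, a difference of -0.0086 (SE 0.15, limma adjusted p = 0.995). In all 3 the highest array of the 8 was normal replicate 4, and without it they lay at 0.011, 0.039 and 0.12.

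The base assembly chaperones were dimmer and did not pass the test. Psmd5 had a difference of -0.18 (SE 0.16), Psmd10, also known as gankyrin, -0.22 (SE 0.19), and Psmd9 0.065 (SE 0.16), with adjusted p from 0.774 to 0.942 by limma. Psmd5 lay at -0.085 without dystrophic replicate 4 and Psmd10 at -0.084 without dystrophic replicate 1. Psma8 was not tested, since its signals of 4.78 to 49.7 lay near the 0.78 to 32.2 of the TrpnX control probe sets. Psmc3ip had a difference of -0.47 (SE 0.27, limma adjusted p = 0.627), which was -0.29 without the 2 arrays that stand apart.

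A pattern that none of these tests addressed was the spread within groups. On the log2 scale the standard deviation was smaller among the 4 dystrophic arrays than among the 4 normal arrays for 26 of the 31 subunits (83.9%), against 57.8% of all tested probe sets and 62.4% of the 3855 tested probe sets at least as bright as the dimmest subunit. The median standard deviation of the subunits was 0.25 in normal and 0.14 in dystrophic arrays, where over all tested probe sets it was 0.25 and 0.22. Psmd4, for example, ranged from 2269 to 3365 in normal and from 2908 to 3172 in dystrophic arrays, and Psmd6 from 2642 to 4278 and from 3020 to 3300. Without normal replicate 4 the count was 22 of 31 (71.0%), against 48.5% of all tested probe sets and 51.9% of the bright ones. With dystrophic replicate 3 left out as well it was 19 (61.3%), against 52.3% and 56.0%. This count was made after the values had been seen, and it was not tested.

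Single arrays differed in where their subunits lay. Normal replicate 4 was the highest of the 8 arrays for 10 subunits and the lowest for 4, among them Psmc1 and Psmd2. Over all tested probe sets it was the highest in 17.7% and the lowest in 20.6%. Normal replicate 2 was the lowest for 12 subunits and the highest for 0, where over all tested probe sets it was the lowest in 9.15%. Relative to each subunit's own mean, the median of the 31 was -0.049, -0.17, -0.024 and 0.084 on normal replicates 1 to 4 and 0.069, 0.090, -0.021 and 0.059 on dystrophic replicates 1 to 4. Over the 3855 tested probe sets at least as bright as the dimmest subunit, the same median was 0.071 on normal replicate 4. It was -0.085 on dystrophic replicate 3 and lay between -0.014 and 0.021 on the other arrays. On normal replicate 2 only 5 of the 31 subunits lay above their own mean, and on dystrophic replicate 2 this was 23. For the base alone the medians were -0.11, -0.17, -0.040 and 0.071 in normal and 0.076, 0.17, 0.011 and 0.086 in dystrophic arrays, which overlap. After quantile normalization the base medians did not overlap. They were -0.11, -0.16, -0.028 and -0.0015 in normal and 0.091, 0.16, 0.059 and 0.094 in dystrophic arrays. The medians of the lid and of all 31 did not overlap there either, while those of the core did. These separations were not tested.

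**Figure D3:**
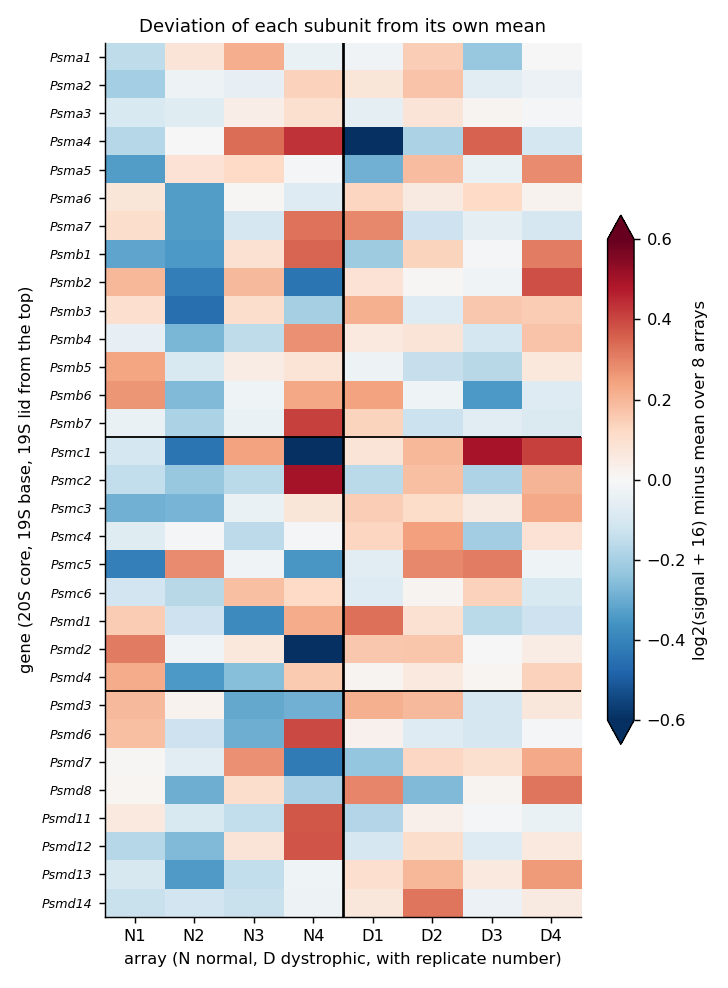
Deviation of each subunit (rows, ordered core, base, lid) from its own mean over the 8 arrays on the log2(signal + 16) scale; columns are arrays, N normal and D dystrophic with the replicate number, and colours are limited to 0.6 either way. Normal replicate 4 holds strong colours in both directions, with Psmc2 high and Psmc1 and Psmd2 low, and normal replicate 2 is low for most rows.

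The poly-A spike-in controls divided the arrays into 3 levels, each with both groups. Within the level that held replicates 2 and 4 of each group, the median differences were 0.039 for the core, 0.17 for the base and 0.26 for the lid. Between the arrays numbered 3 they were -0.025, 0.094 and 0.12, and between those numbered 1 they were 0.081, 0.18 and 0.044. Psmc1 differed by 0.96, 0.25 and 0.18 at these levels, and Psmd13 by 0.41, 0.21 and 0.20. The last 2 levels hold 1 array a group and have no replicate check.

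More than 1 probe set was tested for 13 genes, and their differences shared a sign in 8. They lay on opposite sides of 0 for Psma6 (-0.25 to 0.16), Psmb1 (-0.25 to 0.11), Psmb4 (-0.034 to 0.10), Psmc2 (-0.084 to 0.020) and Psmd11 (-0.16 to 0.27 over 5 probe sets). One of the 2 probe sets of Psmc4 was low on replicate 1 of both groups, at 223.2 and 301.9, where the other 6 arrays lay between 615.1 and 647.7, while the brighter probe set of Psmc4 did not separate those arrays. Of the tested proteasome probe sets 7 are marked by the manufacturer as able to hybridise with other transcripts, among them those that represent Psma6 and Psmd11. The 13 probe sets not tested had mean signals between 11.1 and 121.3.

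The other genes of the pathway showed no call either. Of 37 listed genes 26 had a probe set of 1 symbol, and all 26 were tested. None passed the limma test. At an unadjusted p under 0.05, 1 was lower, against 4.13% of all probe sets, and 0 were higher, against 5.6%. Of the 26, 10 lay above 0 (38.5%), against 47.7% of all tested probe sets, and 16 below, with a median of -0.087. Psme4, the activator PA200 that caps the core without ATP, had 2525 to 4215 in normal and 2094 to 2723 in dystrophic arrays, a difference of -0.36 (SE 0.17, adjusted p = 0.513), which was -0.21 without normal replicate 4, the highest array. Uchl5, a deubiquitinase on the base, had 609.6 to 897.6 and 405.6 to 737.6, a difference of -0.39 (SE 0.20, adjusted p = 0.560), which was -0.23 without dystrophic replicate 1. Both ranges overlap.

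Of the core assembly chaperones, Pomp, which matures the beta ring, had 1858, 1897, 2213 and 2047 in normal and 2228, 2326, 2241 and 2223 in dystrophic arrays. The groups did not overlap, yet the difference was only 0.17 (SE 0.11, adjusted p = 0.676). Ubqln1, a shuttle that brings ubiquitinated proteins to the proteasome, did not overlap in the other direction, with 1878 to 2273 in normal and 1622 to 1754 in dystrophic arrays and a difference of -0.23 (SE 0.11, adjusted p = 0.543), which was -0.15 without the 2 arrays that stand apart. Over all tested probe sets 3.87% were higher without overlap and 2.53% lower, and 1 of the 26 pathway genes went each way. Nfe2l1 differed by 0.0028 (SE 0.14), and Ngly1, the glycanase that activates its protein, by -0.14 (SE 0.11, adjusted p = 0.754). Fbxo32, the muscle ubiquitin ligase atrogin-1, had 1993 to 3022 in normal and 1496 to 3077 in dystrophic arrays, a difference of -0.21 (SE 0.22, adjusted p = 0.822). With single arrays left out it lay between -0.39 (without dystrophic replicate 4) and -0.045 (without dystrophic replicate 1).

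The 3 immunoproteasome subunits, which replace the catalytic beta subunits in immune cells and after interferon, did not pass the test. Psmb10 had 422.8 to 563.7 in normal and 560.9 to 636.1 in dystrophic arrays, a difference of 0.25 (SE 0.13, adjusted p = 0.590), Psmb9 a difference of 0.37 (SE 0.24) and Psmb8 one of -0.080 (SE 0.16).

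**Figure D4:**
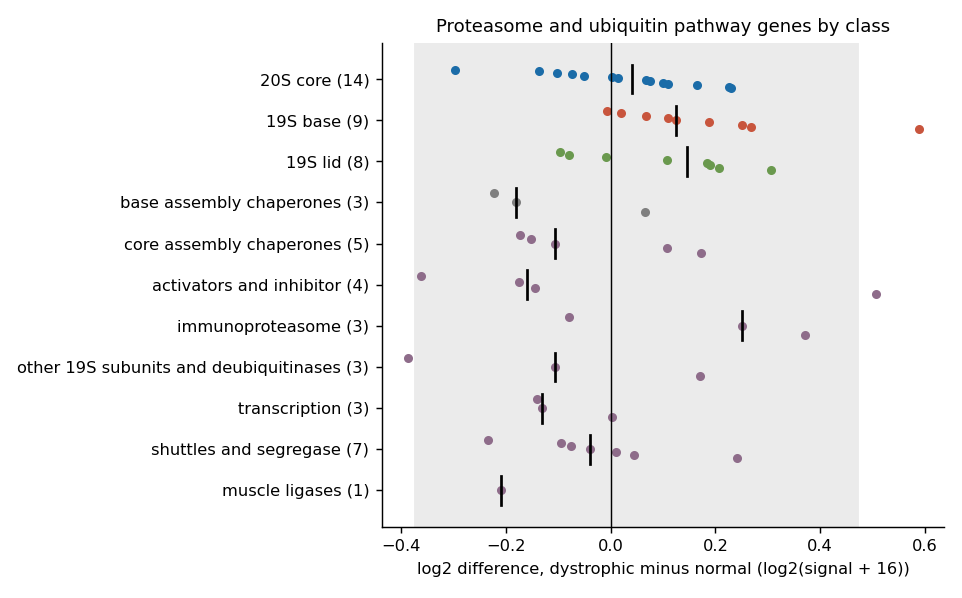
Log2 difference, dystrophic minus normal, of each tested gene by class (points, with the number of genes in brackets) and the class median (black bars), on the log2(signal + 16) scale; the grey band spans the 5th to 95th percentile of all tested probe sets, -0.37 to 0.47. Psmc1 and Psmf1 lie above the band and Uchl5 lies just below it, and the class medians lie between -0.21 and 0.25. The difference of Psmf1, 0.51 (SE 0.42, limma adjusted p = 0.759), comes with a low normal replicate 1. Its signal there was 93.8, where the other arrays lay between 372.1 and 591.2.

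Markers of other cells did move between the same arrays. Macrophage markers summed to 6678 to 8926 in normal and 11773 to 14164 in dystrophic arrays, and 4 of 10 rose by limma. Fibroblast markers summed to 26163 to 31595 and 39014 to 49685, and 3 of 8 rose. Over the whole array 62 of 13575 tested probe sets rose. The smallest macrophage difference was 0.080, for Cd14 (limma adjusted p = 0.948). The smallest fibroblast difference was 0.29, for Dcn (limma adjusted p = 0.505). Markers of regenerating fibres, such as embryonic myosin (Myh3), summed to 385.0 to 538.9 and 2811 to 5214, and all 4 rose. Of these, Myh3 and Myh8 reached at most 11.2 and 112.0 in normal arrays, below the filter's cut at a signal of 121.9. Both were tested only through their dystrophic values. The normal signals of Myh3, 7.90 to 11.2, lay within the 0.78 to 32.2 of the TrpnX control probe sets. The proteasome genes are expressed in macrophages, fibroblasts and regenerating fibres, and the part of the changed cell content in their values was not tested.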

How the data were processed

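RNA of 8 pooled diaphragm samples was measured on Affymetrix arrays. The authors deposited signal intensity values on a linear scale, made with MAS5 per the submitters' processing notes (version not given in the sources used here). Their 2% trimmed mean was 400.2 for normal replicate 4 and 500.2 for the others, and all arrays were rescaled to 487.7. After 64 controls and the lowest 40% by mean log2(signal + 16) were removed, 13575 of 22690 probe sets were tested with limma 3.58.1 in R 4.3.3 (lmFit, eBayes with a trend), with Benjamini-Hochberg adjustment and a threshold of 0.05. Adjusted p-values in the text are limma's. Outside the controls 20380 probe sets had 1 symbol, 691 several and 1555 none. Entrez identifiers of 20351 were found in the RefSeq gene table (GRCm38.p6), which gave current symbols. The brightest tested probe set represented a gene. Of 37 pathway genes 11 are not analysed here. The number of arrays limits the precision.

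The members and lists were chosen with earlier results of these data known. Signals per array are given for the catalytic subunits, members past the threshold, and the 3 highest and 3 lowest differences in the core and in the base and lid together, and pathway genes were named by the smallest p of their class. Psmd2, Psmd4, Psmd14, second probe sets and other pathway genes with values were singled out after their values were seen, as were the counts of spread within groups. Alternatives were offsets of 1 and 64, other scalings and filters, blocks, array weights, averaged probe sets and left-out arrays. The fit was tested on simulated data. Plots were made in Python 3.11.15 (matplotlib 3.10.9).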

Additional observations from a re-analysis of the deposited data

Results flagged for a closer look

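In 2 subunits 1 array lay far from the other 3 of its group, by Dixon's test at the 95% level, which chance meets in about 1 of 20 groups. Each of the 31 subunits has 2 groups, so 2 such arrays are not more than that rate gives. Psma7 had 2028 in dystrophic replicate 1, where the other dystrophic arrays lay between 1523 and 1592. Psmc2, an ATPase of the base, had 4632 in normal replicate 4, where the other normal arrays lay between 2792 and 2955.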

How the results depend on the processing

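The count of probe sets changed over the whole array was 67, and it was 105 with the replicate block, 114 with the spike-in level as a block, 127 with array weights, 31 without normal replicate 4 and dystrophic replicate 3, and between 25 and 61 with 1 array left out. The 3 lowest of these were 25 without dystrophic replicate 4, 29 without dystrophic replicate 3 and 34 without dystrophic replicate 2. The count of proteasome genes changed was 0 under every alternative run, with a lowest adjusted p of 0.179 by limma (Psmc1 without normal replicate 3). The deviations of same-numbered samples correlated at 0.48, -0.046, 0.15 and 0.13 for numbers 1 to 4. Since 1 of the 4 lay under 0.1, and not every sample correlated best with its own number, the numbers were not taken as pairing, although replicate 1 of both groups and replicate 3 of both groups also shared a spike-in level. With the replicate block 3 subunits were higher at an unadjusted p under 0.05 (Psmc1, Psmc3 and Psmd13) and 1 was lower (Psma4), against 2 and 0 without it, and the lowest adjusted p was 0.233 by limma. Probe sets changed over the whole array also rose with that block, from 67 to 105, so these counts are not read as a gain of the subunits.

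The median of the core lay between -0.0010 (probe sets of a gene averaged) and 0.12. The median of the base was 0.22 without the 2 arrays that stand apart. The median of the lid was 0.23 on the values as deposited, and 0.079 to 0.16 with 1 array left out. The deposited values moved the median of all probe sets to 0.065. Taken array by array, the medians of the base, the lid and all subunits overlapped between the groups on the rescaled values. After quantile normalization they did not.

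Signs close to 0 turned. With quantile normalization Psmb7 was 0.061, Psmc6 0.0087 and Psmd12 0.0072, and on the values as deposited Psma1 was 0.029, Psmb7 0.0063, Psmc6 0.072 and Psmd12 0.071. With the 75th percentile shift Psma3 was -0.0002 and Psma7 -0.013. With array weights Psmd6 was 0.020 and Psmd12 0.077. Without the 2 arrays Psmb6 was 0.055, Psmb7 0.060, Psmd6 0.060, Psmd7 -0.030, Psmd12 0.14 and Psmd9 -0.023. With a gene's probe sets averaged Psma6 was -0.016, Psmb1 -0.071 and Psmc2 -0.032. With 1 array left out Psma1 lay between -0.11 and 0.016, Psma3 between -0.014 and 0.048, Psma5 between -0.034 and 0.18, Psma7 between -0.11 and 0.11, Psmb7 between -0.15 and 0.051, Psmc2 between -0.054 and 0.19, Psmc6 between -0.065 and 0.051, Psmd1 between -0.049 and 0.15, Psmd2 between -0.024 and 0.32, Psmd6 between -0.19 and 0.039, Psmd7 between -0.016 and 0.22, Psmd9 between -0.050 and 0.15, Psmd11 between -0.16 and 0.011, and Psmd12 between -0.099 and 0.12. The cause was not tested. Signal over background limits dim genes such as Psma8.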
